A study of Mus musculus with 12 samples.

Results

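Chromatin accessibility was examined at 10 genes that set whether a blood stem cell divides or rests: the kinase gene Cdk6, the D-type cyclin genes Ccnd1, Ccnd2 and Ccnd3, the activators E2f1 and Cdc25a, and the inhibitor genes Cdkn1a, Cdkn1b, Cdkn1c and Cdkn2c. Every open chromatin region that overlapped the body of one of these genes or its flanks of 20 kb was taken, which gave 161 of the 121336 regions in the table. Cdk6 held 48 of them, Ccnd3 29, Ccnd2 16, Ccnd1 13, Cdkn1c 12, Cdkn1a 11, Cdc25a 10, Cdkn1b 9, E2f1 8 and Cdkn2c 5. Each region lay in the window of 1 of these genes only, but for 52 of the 161 the nearest start site of a protein-coding gene belonged to a neighbour, so 109 were closest to the gene they were listed under. A neighbour was nearest for 24 of the 48 regions at Cdk6, and it was Fam133b in each case.

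The data are ATAC-seq libraries (OmniATAC protocol), in which a transposase cuts open DNA and the number of reads in a region measures how accessible it was. Bone marrow was taken from WT mice and from littermates of the genotype UREd/d, here called URE, which lack in every cell the upstream regulatory element, an enhancer of Spi1, the gene of the transcription factor PU.1. The mice were on the C57BL/6 background, 8 to 12 weeks old and preleukemic. LSK (Lin- Sca-1+ c-Kit+, stem and multipotent progenitor cells) and GMP (granulocyte-monocyte progenitors, Lin- Sca-1- c-Kit+ CD16/32+) were sorted after c-Kit enrichment, with 3 libraries for each genotype of either population (WT-LSK and WT-GMP, URE-LSK and URE-GMP), each from 7000 to 35000 cells. Per the study's methods 3 mice were used for each genotype and cell type. Library totals ran from 23072701 to 62204826 counts. Both sorted populations are mixtures, so a change in their makeup and a change inside the cells cannot be told apart in these bulk libraries.

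D-type cyclins bind CDK4 or CDK6, and the active kinase phosphorylates the retinoblastoma protein, which then releases E2F factors such as E2F1 to switch on the genes of DNA replication. CDC25A removes inhibitory phosphates from cyclin-dependent kinases. p18 (Cdkn2c) blocks CDK4 and CDK6, whereas p21 (Cdkn1a), p27 (Cdkn1b) and p57 (Cdkn1c) bind cyclin-kinase complexes more broadly, and p57 is known for holding blood stem cells at rest. CDK6 is low in the most dormant stem cells, and PU.1 is known to restrain the cycling of stem cells.

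The deletion could be seen in the data. Of the regions at the annotated 5′ end of Spi1, chr2:91082790-91083700 held 36.0 to 46.2 CPM (counts relative to the scaled library total) in the 6 WT libraries and 0 to 0.143 CPM in the 6 URE libraries. Of 8 GMP marker genes, 7 had open chromatin no further than 1 kb from their start sites, and all 7 were higher in every WT-GMP than in every WT-LSK library. Of the 8 LSK markers 7 had such a region, and 5 of them were lower in WT-GMP without overlap. Ly6a of the LSK list and Fcgr3 of the GMP list had none. The summed level of the GMP markers was 254 to 322 CPM in WT-GMP and 396 to 415 CPM in URE-GMP, and in LSK it was 59.2 to 69.7 CPM in WT and 48.3 to 83.7 CPM in URE. Levels at 3 megakaryocyte markers were 35.1 to 57.6 CPM in WT-GMP and 24.8 to 34.1 CPM in URE-GMP, and 65.6 to 87.8 CPM in WT-LSK and 88.7 to 95.0 CPM in URE-LSK. Of 3 mast cell and basophil markers 1 had a region, with 5.09 to 7.84 CPM in WT-LSK and 11.5 to 15.2 CPM in URE-LSK. Macrophage markers (3 of 4 with a region) were at 40.8 to 47.4 CPM in WT-LSK and 35.1 to 38.1 CPM in URE-LSK, and at 64.5 to 72.8 CPM in WT-GMP and 57.4 to 63.2 CPM in URE-GMP. Erythroid markers (2 of 5) were at 51.6 to 52.9 CPM in WT-LSK and 62.2 to 68.2 CPM in URE-LSK, and at 53.6 to 58.8 CPM in WT-GMP and 61.5 to 64.4 CPM in URE-GMP. The LSK markers were at 289 to 299 CPM in WT-LSK and 308 to 349 CPM in URE-LSK, B cell markers (2 of 4) at 11.7 to 12.2 and 12.7 to 15.4 CPM there, and T cell markers (1 of 4) at 1.97 to 3.39 CPM in WT-GMP and 4.94 to 7.37 CPM in URE-GMP. Among those with no region were Gata1, Pax5, Cd79a, Cd3e, C1qa and Ms4a2. Genotype ranges overlapped in GMP for the LSK markers (213 to 241 CPM in WT, 204 to 224 CPM in URE). The B cell markers overlapped there too (10.1 to 12.1 and 10.4 to 11.2 CPM). So did the mast cell and basophil marker (2.25 to 4.43 and 3.23 to 7.24 CPM). T cell markers overlapped in LSK (9.26 to 13.3 and 10.6 to 11.3 CPM). Some marker levels thus moved with genotype and others did not, and their part in the differences given below was not tested.

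The stretches below hold the motif matches at or beside regions to which the results return. They were read from GRCm38 on the plus strand, and capitals mark matches on either strand to a PU.1 motif (GAGGAAGT), a RUNX motif (AACCACA) or a CEBP motif (TTGCNNAA). Only 30 bases are shown at Ccnd1, where the match lies in the 3′ UTR of the last exon, and the match at the first Cdk6 site lies just past the end of its narrow region, within the window searched.
Ccnd1, PU.1 match, chr7:144932480-144932509: aagagaacaaaACTTCCTCttctggtaaca
Cdc25a, PU.1 match, chr9:109908143-109908292: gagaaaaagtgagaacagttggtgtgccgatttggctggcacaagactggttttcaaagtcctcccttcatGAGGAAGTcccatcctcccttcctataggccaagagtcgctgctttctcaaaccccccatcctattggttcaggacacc
Ccnd3, PU.1 matches, chr17:47531646-47531795: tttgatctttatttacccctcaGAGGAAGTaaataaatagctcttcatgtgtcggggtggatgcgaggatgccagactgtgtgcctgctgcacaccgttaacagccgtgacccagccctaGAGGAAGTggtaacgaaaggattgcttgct
Ccnd2, CEBP match, chr6:127170744-127170893: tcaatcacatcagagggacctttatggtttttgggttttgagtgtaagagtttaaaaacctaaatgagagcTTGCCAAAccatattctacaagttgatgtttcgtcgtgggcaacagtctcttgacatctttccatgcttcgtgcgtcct
Cdc25a, CEBP match, chr9:109861357-109861506: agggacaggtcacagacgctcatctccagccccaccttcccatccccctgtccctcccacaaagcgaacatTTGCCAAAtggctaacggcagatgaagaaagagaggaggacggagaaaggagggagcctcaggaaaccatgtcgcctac
Cdk6, CEBP match, chr5:3464883-3465032: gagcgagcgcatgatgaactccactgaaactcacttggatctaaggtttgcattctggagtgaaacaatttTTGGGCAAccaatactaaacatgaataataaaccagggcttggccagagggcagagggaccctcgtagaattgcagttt
Cdk6, RUNX matches, chr5:3461068-3461217: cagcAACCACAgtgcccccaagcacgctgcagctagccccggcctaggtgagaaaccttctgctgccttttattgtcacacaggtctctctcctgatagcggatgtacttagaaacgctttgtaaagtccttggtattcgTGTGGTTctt
Motifs were searched in 300 bp centred on each region, which reach past the ends of narrow regions. This window held the PU.1 motif for 9 of the 161 regions (5.59%), against 8.70% of all regions. For RUNX the counts were 11 of 161 (6.83%) against 14.4%, and for CEBP 26 of 161 (16.1%) against 16.4%. No match of 1 motif overlapped a match of another among the 50 matches in these windows. A match is a run of letters and does not show that the factor was bound.

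A region was called where the edgeR quasi-likelihood test gave a Benjamini-Hochberg adjusted p under 0.05 and the absolute log2 fold change was over 1. Between URE and WT, 36 of the 161 regions were called in LSK, 8 higher and 28 lower, and 46 were called in GMP, 20 higher and 26 lower. Over all 121336 regions 37.5% were called in LSK (13.6% higher, 23.9% lower) and 39.7% in GMP (15.6% higher, 24.1% lower). With the 20 kb windows the cell cycle genes held calls at a lower share, 22.4% in LSK and 28.6% in GMP. With regions assigned by nearest start site instead (178 regions), 35.4% were called in LSK, near the share of the whole table. The median log2 fold change of the 161 regions was 0.12 in LSK and 0.11 in GMP, against 0.14 and 0.06 over all regions. Among the calls, 77.8% were lower in LSK and 56.5% in GMP, against 63.8% and 60.6% of the calls over all regions. The shares among the 161 regions moved with the scaling. With offsets for GC content they were 56.4% and 41.5%, and with loess offsets against abundance 56.1% and 40.7%. The shares over all regions under these offsets are not given here.

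The same regions were called in both cell types in 25 cases, 18 lower (11.2%) and 7 higher (4.35%) in both, against 18.7% and 8.45% of all regions. Another 10 were lower and 1 higher in LSK alone (5.11% and 5.06% of all regions), 8 were lower and 13 higher in GMP alone (5.22% and 7.12%), none went in opposite directions, and 104 (64.6%) were called in neither, compared with 50.1% of all regions. A call in 1 cell type alone is no test of a difference. The interaction, the log2 fold change in GMP minus that in LSK, was tested for that and was called at 18 of the 161 regions, 12 positive and 6 negative, where 14% of all regions were called (8.96% positive, 5.03% negative).

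**Figure D1:**
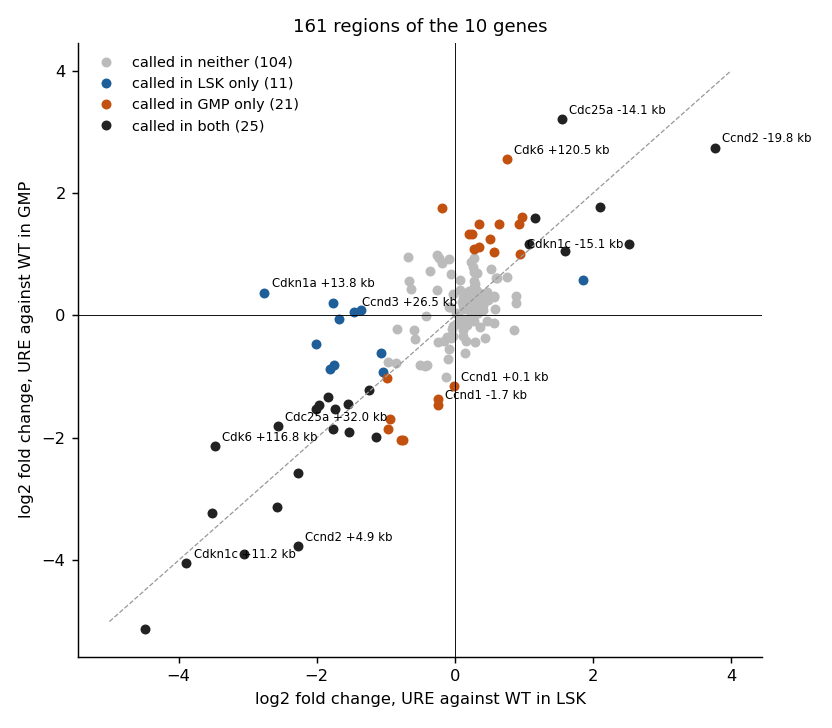
Log2 fold change of URE against WT in LSK (horizontal) and in GMP (vertical) for each of the 161 regions, coloured by where the region was called, with gene and distance from its start site for some named regions; the dashed line marks equal change. The 25 regions called in both cell types lie in the lower left and upper right corners, and none lies in an upper left or lower right corner with a call in both.

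The promoters of these genes stayed within the fold threshold in both cell types, except at Ccnd1 and in a flank at Cdkn2c in GMP. A promoter region is one within 500 bp of a start site, and 32 of the 161 regions were promoters of any gene. None of the 32 was called in LSK and 3 were called in GMP, all lower, against 11.5% and 13% of all promoter regions. The median log2 fold change of the 32 was 0.28 in LSK and 0.13 in GMP, against 0.22 and 0.16 over all promoter regions. The Cdk6 promoter (chr5:3340755-3344895) measured 121, 120 and 116 CPM across the WT-LSK libraries against 151, 134 and 137 across URE-LSK, then 191, 151 and 163 across WT-GMP against 179, 185 and 180 across URE-GMP. The URE-LSK libraries thus lay above WT-LSK, while the GMP groups overlapped, with log2 fold changes of 0.24 ± 0.08 (SE) in LSK and 0.11 ± 0.08 in GMP. For each gene the region with the most counts among those within 500 bp of one of its own start sites was taken. Over the 8 genes other than Cdk6 and Ccnd1, its log2 fold changes ran from 0.07 (Cdkn1a) to 0.58 (Ccnd2) in LSK and from -0.05 (Cdkn2c) to 0.42 (Cdkn1a) in GMP. A larger region at Cdkn1a (chr17:29094310-29095946) lies further than that from the start sites of Cdkn1a, and its log2 fold changes were 0.27 ± 0.09 and 0.33 ± 0.09. Small values here turned sign with the scaling. In GMP those of Cdk6, Ccnd2, E2f1 and Cdkn1b were below 0 with library size only, TMM on promoter regions or loess offsets. In LSK those of Cdk6 (-0.116), E2f1, Cdc25a, Cdkn1a, Cdkn1b and Cdkn2c were below 0 with loess offsets. Among these most-counted regions the Ccnd2 promoter (chr6:127150878-127152960) had the largest change in LSK. It held 103, 99.2 and 106 CPM across WT-LSK against 166, 151 and 143 across URE-LSK (adjusted p = 4.2e-06, edgeR). Its groups did not overlap in LSK, but the change stayed under the fold threshold, and in GMP it was 0.10 ± 0.07 on the log2 scale. Another Ccnd3 promoter region with fewer counts (chr17:47504803-47505385) changed by 0.60 ± 0.14 in LSK and 0.62 ± 0.14 in GMP on that scale. The adjusted p was 0.00162 and 0.00135 (edgeR), and the genotypes did not overlap in either cell type.

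**Figure D2:**
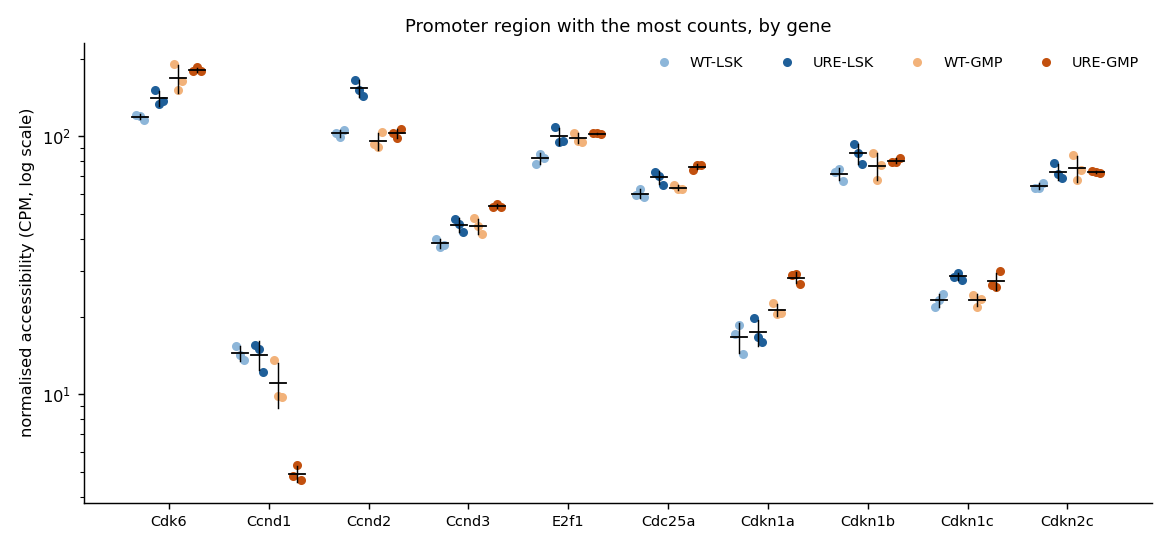
Normalised accessibility (CPM, log scale) of the region with the most counts within 500 bp of a start site of each gene; points are libraries, horizontal bars the mean of 3 and vertical bars the SD. The 3 URE-GMP libraries of Ccnd1 sit between 4.65 and 5.33 CPM, below the 9 other Ccnd1 libraries, whereas the groups of the other genes lie close together.

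At Ccnd1, the gene of cyclin D1 (chr7:144929931-144939925, minus strand), accessibility at and upstream of the start site was lower in URE-GMP and changed less in URE-LSK. The promoter region chr7:144939538-144939991 held 15.5, 14.3 and 13.6 CPM across WT-LSK against 15.6, 15 and 12.2 across URE-LSK. In WT-GMP it held 13.6, 9.82 and 9.77 CPM and in URE-GMP 4.82, 5.33 and 4.65 CPM. The LSK groups overlapped and the GMP groups did not. The log2 fold change was -0.02 ± 0.15 for LSK (adjusted p = 0.933) and -1.15 ± 0.16 for GMP (adjusted p = 1.54e-05), and the interaction was -1.14 ± 0.22 (adjusted p = 0.00262). WT-GMP replicate 1 was the highest WT-GMP library here, and without it the interaction was -0.95 (adjusted p = 0.00334), which is under the fold threshold.

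Upstream of it, 3 more regions were called lower in GMP and for the interaction. At 1.7 kb upstream, chr7:144941313-144941815 measured 20.6, 18.8 and 19.5 CPM across the WT-LSK libraries against 17.6, 17.3 and 14.8 across URE-LSK, then 23, 17.5 and 17.1 across WT-GMP against 6.82, 8.4 and 5.6 across URE-GMP. The 3 URE-GMP libraries lay below the 9 others. The log2 fold change was -1.46 ± 0.16 in GMP and -0.25 ± 0.15 in LSK, and the interaction was -1.21 ± 0.22 (adjusted p = 0.00147). At 0.5 and 2.4 kb upstream the GMP means fell from 5.29 ± 2.1 to 1.26 ± 0.28 CPM and from 3.25 ± 1.2 to 0.777 ± 0.12 CPM (SD, n = 3), with interactions of -1.26 ± 0.41 and -1.27 ± 0.38 (adjusted p = 0.048 and 0.0325, edgeR). In LSK the log2 fold changes of these regions were -0.78 ± 0.29 and -0.76 ± 0.26, under the fold threshold, with URE below WT in every library. Both were named after their values were seen. Inside the gene, the region at 2.1 kb measured 14.1 ± 0.59 CPM for WT-GMP against 14.4 ± 0.48 for URE-GMP. The region at 1.5 kb had a log2 fold change of -0.61 ± 0.24 in GMP (adjusted p = 0.036), and that at 7.9 kb, in the UTR, went from 3.27 ± 0.49 to 1.62 ± 0.17 CPM without overlap (-0.998 ± 0.23, adjusted p = 0.00123), both short of a call.

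The largest loss among the 161 regions, by log2 fold change in GMP, lay at the other end of Ccnd1. The region chr7:144932413-144932751 spans the end of the coding sequence and the start of the 3′ UTR in the last exon, and it holds the PU.1 match shown above. It measured 4.07, 4.28 and 4.14 CPM across the WT-LSK libraries against 0.214, 0.112 and 0.214 across URE-LSK, then 7.49, 9.15 and 7.56 across WT-GMP against 0.151, 0.364 and 0.145 across URE-GMP. Every URE library was nearly closed in both cell types. The log2 fold changes were -4.48 ± 0.31 for LSK (adjusted p = 1.59e-08) and -5.12 ± 0.30 for GMP (adjusted p = 9.11e-09), and the interaction was not called (-0.64 ± 0.47). Of the 13 Ccnd1 regions none was called higher, 2 were lower in LSK and 6 in GMP, where 23.9% and 24.1% of all regions were lower.

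**Figure D3:**
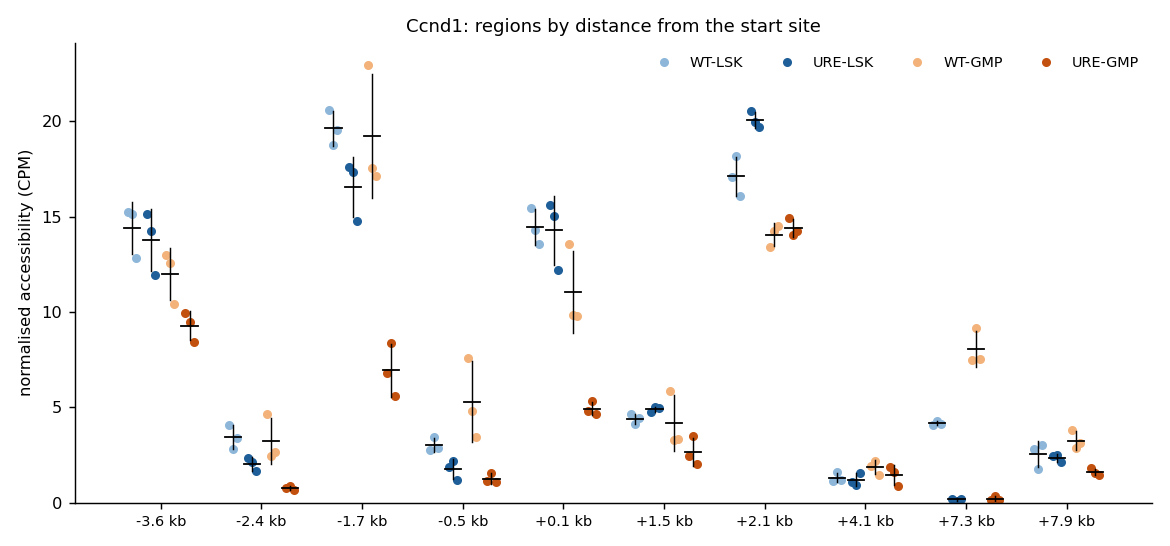
Normalised accessibility (CPM) of 10 Ccnd1 regions, ordered by distance from the start site (negative is upstream); points are libraries, horizontal bars means and vertical bars SD of 3. From -2.4 to +0.1 kb the URE-GMP libraries lie below every library of WT-GMP, and at +7.3 kb the URE libraries of both cell types are near 0.

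Cdk6 (chr5:3341485-3531008), whose kinase pairs with the D-type cyclins, showed gains and losses side by side within its introns. In GMP, 13 of its 48 regions were called higher in URE and 8 lower, while in LSK 3 were higher and 9 lower. Over all regions 15.6% were higher and 24.1% lower in GMP, and 13.6% and 23.9% in LSK. The 13 gains in GMP ranged from 1.05 to 2.56 on the log2 scale and the 8 losses from -3.23 to -1.21. By the smallest p, the leading gain was chr5:3464694-3464937, an intronic region 121 kb from the start site that held 0.711, 0.692 and 0.53 CPM across WT-GMP against 3.32, 4.34 and 3.66 across URE-GMP. In LSK it held at most 7 counts in a WT library (0.0408 to 0.141 CPM) and 10 in a URE library (0.143 to 0.279 CPM). Its log2 fold change in GMP was 2.56 ± 0.29 (adjusted p = 2.36e-06). The interaction of 1.80 ± 0.58 (adjusted p = 0.0442) was computed with these low counts, and it missed the threshold without URE-GMP replicate 1, 2 or 3 (1.88, 1.68 and 1.82), URE-LSK replicate 1 or 3 (1.62 and 1.71), WT-GMP replicate 3 (1.74) or WT-LSK replicate 1 or 3 (1.73 and 1.59), the adjusted p then being 0.0592 to 0.174.

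The leading loss lay in the same stretch. The region chr5:3460918-3461265, whose central 300 bp held both RUNX matches printed above, measured 5.25, 5.1 and 5.47 CPM across the WT-LSK libraries against 0.523, 0.391 and 0.491 across URE-LSK, then 6.94, 5.2 and 5 across WT-GMP against 1.29, 1.63 and 0.921 across URE-GMP. URE libraries were lower without overlap in both cell types, with log2 fold changes of -3.48 ± 0.25 for LSK (adjusted p = 2.36e-08) and -2.13 ± 0.23 for GMP (adjusted p = 1.17e-06). The loss was larger in LSK, with an interaction of 1.34 ± 0.34 (adjusted p = 0.0126). Between them, chr5:3463170-3463700 rose by 1.5 ± 0.22 on the log2 scale in GMP, from a mean of 3.76 ± 1.1 to 10.5 ± 0.62 CPM (SD, n = 3).

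The step from LSK to GMP was large at Cdk6 in both genotypes. In WT, 30 of the 48 regions were higher in GMP than in LSK and 1 was lower, against 21% and 16.8% of all regions (37.8% called), and in URE 35 were higher and 1 lower, against 27.6% and 21.6% (49.1% called). Among the 10 genes this step was called at 56 regions in WT, 48 of them higher in GMP, and at 70 in URE, 55 of them higher, so Cdk6 held most of it. The intronic region chr5:3463170-3463700 measured 0.315, 0.204 and 0.382 CPM in WT-LSK and 4.89, 3.67 and 2.72 CPM in WT-GMP, a step of 3.55 ± 0.29 on the log2 scale (adjusted p = 1.91e-07). At the one region that was lower in WT-GMP, chr5:3433322-3433760, the means were 4.08 ± 0.71 CPM for WT-LSK against 1.54 ± 0.62 for WT-GMP. The step contrasts and the genotype contrasts share libraries and were not set against each other.

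The CEBP motif was found in the window of 9 of the 20 regions that were higher in URE-GMP (45%), 7 of which lay among the 13 at Cdk6, and in that of 28.6% of all regions that were higher in URE-GMP. None of these 20 windows held the PU.1 motif, which 2.42% of all such windows held. Among the 28 regions lower in URE-LSK the windows of 3 held the PU.1 motif (10.7%), and those of 21.2% of all such regions did. These shares are descriptions.

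**Figure D4:**
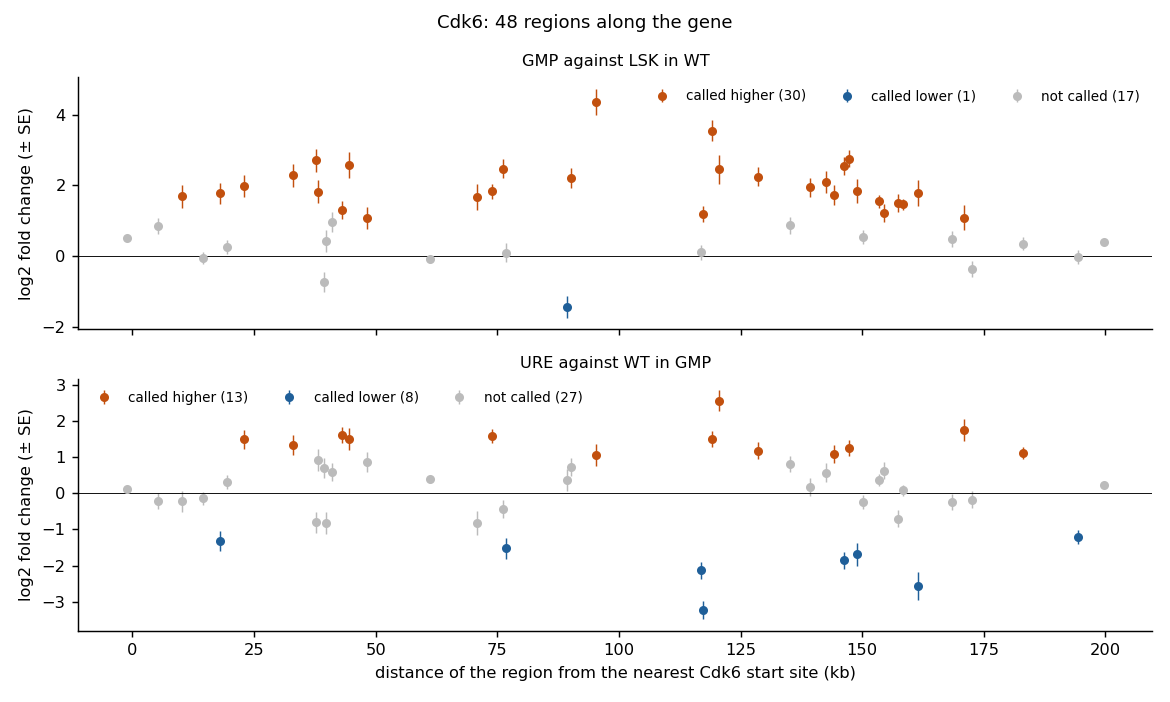
Log2 fold change (± SE) of the 48 Cdk6 regions by distance from the nearest Cdk6 start site, for GMP against LSK in WT (top) and URE against WT in GMP (bottom), with called regions in colour. The top panel has 30 regions called higher and 1 lower, and the bottom panel has 13 higher and 8 lower that are interspersed along the gene.

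Ccnd2, which encodes cyclin D2, had an upstream gain in both cell types. The region chr6:127170628-127171095 lies 19.8 kb upstream of the nearest Ccnd2 start site, within an intron of the antisense gene 9330179D12Rik. It held 0.0525, 0.122 and 0.0804 CPM across the WT-LSK libraries against 0.69, 0.782 and 1.88 across URE-LSK, then 2.84, 1.78 and 1.36 across WT-GMP against 13.6, 12.1 and 13.4 across URE-GMP. The WT-LSK libraries held at most 4 counts. Each URE group lay above its WT group, by 3.77 ± 0.53 for LSK (adjusted p = 1.72e-05) and 2.74 ± 0.32 for GMP (adjusted p = 2.78e-06) on the log2 scale. In a coding exon of Ccnd2, chr6:127145913-127146270 fell instead, from 1.65 ± 0.65 to 0.338 ± 0.12 CPM among LSK libraries and from 4.3 ± 1.4 to 0.312 ± 0.086 among GMP libraries (SD, n = 3; log2 fold changes -2.27 ± 0.39 and -3.77 ± 0.38). Of the 16 regions 3 were called higher and 2 lower in LSK, and 2 higher and 1 lower in GMP. Over all regions 13.6% were higher and 23.9% lower in LSK, and 15.6% and 24.1% in GMP.

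Ccnd3, the gene of cyclin D3, had few calls, and at some of them the genotype effect differed between the cell types. In the intron that holds both PU.1 matches printed above, chr17:47531313-47531969 measured 12.2, 13.4 and 9.51 CPM across the WT-LSK libraries against 4.14, 4.72 and 3.93 across URE-LSK, then 7.57, 6.86 and 7.08 across WT-GMP against 7.1, 7.63 and 7.66 across URE-GMP. The LSK groups did not overlap and the GMP groups did, and the interaction was 1.51 ± 0.23 (adjusted p = 0.000419). The opposite order was seen at chr17:47526697-47527156, which fell among GMP libraries from 7.03 ± 1.2 to 1.94 ± 0.21 CPM (log2 fold change -1.85 ± 0.19) and had a log2 fold change of -0.97 ± 0.19 in LSK. Its interaction of -0.88 ± 0.27 was under the fold threshold. The single gain, at chr17:47541849-47542619, went among GMP libraries from 26.4 ± 1.7 to 54 ± 4.8 CPM. Its log2 fold change of 1.03 ± 0.13 fell under the fold threshold without URE-GMP replicate 3 or without WT-GMP replicate 1 (0.95 in each case), and likewise with library size only (0.91), TMM on promoter regions (0.89) or loess offsets (0.87). Of the 29 Ccnd3 regions 4 were lower and none higher in LSK, and 3 were lower and 1 higher in GMP, where 37.5% and 39.7% of all regions were called. Of the regions at Ccnd3 that were lower in WT-GMP than in WT-LSK, the one with the smallest p lay in an intron of the neighbour Taf8 (chr17:47484260-47485065), from 14.6 ± 0.055 to 3.42 ± 1.4 CPM.

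Of the activators, Cdc25a changed in its flanks. Of its 10 regions 2 were higher and 2 lower in LSK, and 3 were higher and 1 lower in GMP. Over all regions 13.6% were higher and 23.9% lower in LSK, and 15.6% and 24.1% in GMP. Downstream, chr9:109908126-109908581, with the PU.1 match printed above and Map4 as its nearest gene, measured 2.36, 3.71 and 2.98 CPM across the WT-LSK libraries against 0.404, 0.726 and 0.406 across URE-LSK, then 5.4, 6.21 and 6.38 across WT-GMP against 1.7, 2.26 and 1.14 across URE-GMP. It was lower without overlap in both, with log2 fold changes of -2.56 ± 0.31 for LSK (adjusted p = 2.97e-06) and -1.81 ± 0.26 for GMP (adjusted p = 2.53e-05). Upstream, chr9:109861339-109861702 rose in GMP from 1.38, 1.11 and 0.438 CPM to 10.6, 9.19 and 6.47 CPM (log2 fold change 3.21 ± 0.33, adjusted p = 8.81e-07). Its nearest gene is Camp, which encodes the neutrophil granule peptide cathelicidin. In LSK this region was at 0.102 ± 0.02 CPM in WT and 0.312 ± 0.10 CPM in URE, and its call there (1.55 ± 0.56, adjusted p = 0.0267) was lost without URE-LSK replicate 3 (1.25) and without WT-LSK replicate 1, 2 or 3 (1.49, 1.40 and 1.64), the adjusted p then being 0.0634 to 0.117. The other called regions had Cdc25a itself as nearest gene. Of these, chr9:109902773-109903127 was higher in both cell types (log2 fold changes 2.10 ± 0.32 in LSK and 1.77 ± 0.27 in GMP). In GMP chr9:109866350-109866585 was higher (1.34 ± 0.28). In LSK chr9:109870803-109871063 was lower (-1.67 ± 0.35), with a called interaction of 1.62 ± 0.44.

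E2f1 had 8 regions, of which 2 in LSK and 1 in GMP were called, all lower (23.9% and 24.1% of all regions). At chr2:154583930-154584231, 14.2 kb upstream, the level was 1.91 ± 0.71 CPM for WT-LSK against 0.669 ± 0.15 for URE-LSK, and 2.8 ± 0.92 CPM for WT-GMP against 0.749 ± 0.19 for URE-GMP. The log2 fold changes were -1.53 ± 0.34 and -1.90 ± 0.33 (adjusted p = 0.00125 and 0.000129, edgeR), and with loess offsets that in LSK was -0.94, under the fold threshold.

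At the inhibitor genes Cdkn1a, Cdkn1b and Cdkn1c some regions outside the promoters were lower in URE. Of the 11 Cdkn1a regions 3 were lower in LSK and 1 in GMP, and 0 were higher. Over all regions 23.9% and 24.1% were lower. At Cdkn1a, which encodes p21, the region chr17:29111307-29112101 lies 13.8 kb from the start site, between Cdkn1a and its neighbour Rab44, whose start site is nearer. It measured 26.9, 23 and 24.7 CPM across the WT-LSK libraries against 2.33, 4.02 and 4.66 across URE-LSK, then 42.3, 39.7 and 39.4 across WT-GMP against 50.7, 52.3 and 54.3 across URE-GMP. The region was lower in URE-LSK and higher in URE-GMP, without overlap in either. The log2 fold change was -2.76 ± 0.17 for LSK (adjusted p = 5.81e-09) and 0.37 ± 0.15 for GMP (adjusted p = 0.0378, under the fold threshold), and the interaction of 3.13 ± 0.22 (adjusted p = 2.62e-06) was the largest in size of the 161 regions. In an intron of Rab44, chr17:29115857-29116338 showed the strongest step from LSK to GMP by p at Cdkn1a in WT, from 0.519 ± 0.19 to 5.19 ± 0.89 CPM (3.27 ± 0.27, adjusted p = 2.08e-07), and an interaction of 1.64 ± 0.40 (adjusted p = 0.0107). Inside Cdkn1a, the coding exon region chr17:29099000-29099515 was lower in URE of both cell types. Its log2 fold changes were -1.73 ± 0.20 for LSK and -1.53 ± 0.19 for GMP (adjusted p = 2.73e-06 and 6.93e-06, edgeR). It was named after its values were seen.

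Of the 9 regions of Cdkn1b, the gene of p27, 1 was called in each cell type (37.5% and 39.7% of all regions). In its UTR, chr6:134922823-134923172 fell from 8.35 ± 0.81 to 2.86 ± 0.56 CPM among LSK libraries and from 10.2 ± 0.71 to 3.73 ± 1.0 among GMP libraries, with log2 fold changes of -1.54 ± 0.21 and -1.45 ± 0.21 (adjusted p = 1.22e-05 and 2.02e-05). With offsets for GC content these were -0.94 and -0.86, under the fold threshold.

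At Cdkn1c, the gene of p57, the downstream region chr7:143449605-143449913 held 2.28, 2.08 and 2.57 CPM across the WT-LSK libraries against 0.0952, 0.279 and 0.107 across URE-LSK, then 2.84, 5.94 and 5.12 across WT-GMP against 0.323, 0.312 and 0.194 across URE-GMP. The URE libraries were close to 0 in both cell types. The log2 fold changes were -3.89 ± 0.40 (adjusted p = 6.26e-07) and -4.05 ± 0.35 (adjusted p = 2.24e-07). Of the 12 regions of this gene 3 were lower in LSK and 3 in GMP, where 23.9% and 24.1% of all regions were lower. The only gain, in an exon of the neighbour Slc22a18 (chr7:143475961-143476290), was 1.01 ± 0.23 in GMP, from 0.948 ± 0.12 to 1.89 ± 0.22 CPM. It sat at the fold threshold and fell under it without URE-GMP replicate 1 (0.92), WT-GMP replicate 2 (0.96) or replicate 3 (0.97), or any of the WT-LSK libraries (0.998 each), and with the replicate block (0.99).

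Of the 5 regions of Cdkn2c, which encodes p18, none was called in LSK (37.5% of all regions) and 1 in GMP (39.7%). That region, chr4:109665054-109665427, flanks the main promoter region and measured 7.95, 4.09 and 4.84 CPM across WT-GMP against 2.48, 2.31 and 1.7 across URE-GMP, while the main promoter region stayed at 75.4 ± 8.6 and 72.7 ± 0.88 CPM. The log2 fold change was -1.36 ± 0.24 in GMP (adjusted p = 0.000138) and -0.24 ± 0.23 in LSK. The interaction of -1.12 ± 0.33 (adjusted p = 0.03) was lost without URE-GMP replicate 3 (-0.97), URE-LSK replicate 1 or 2 (-1.07 each), WT-GMP replicate 1 (-0.78), or WT-LSK replicate 1 or 2 (-1.02 and -1.05), the adjusted p then being 0.051 to 0.0693.

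**Figure D5:**
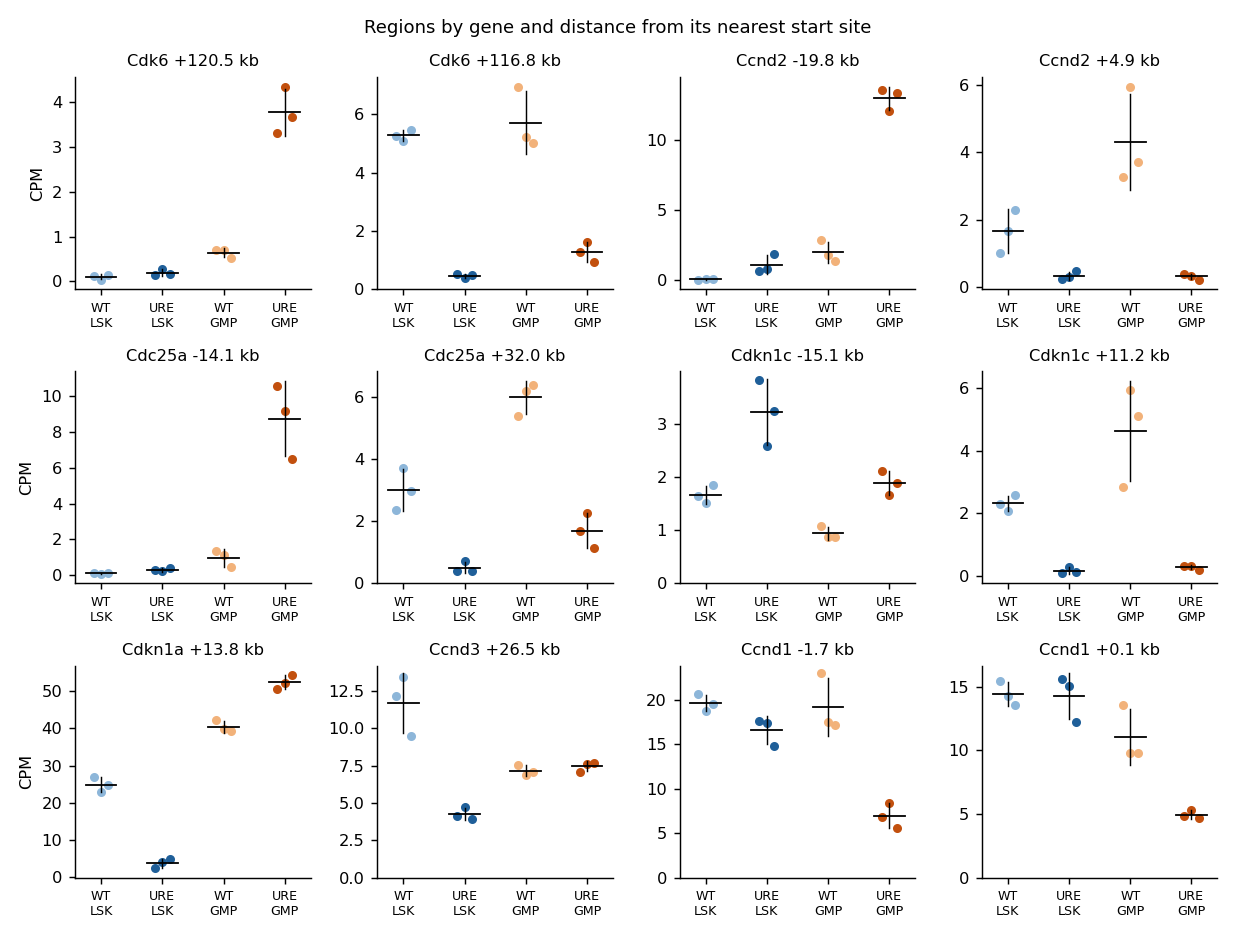
Normalised accessibility (CPM) of 12 named regions in the 4 groups, titled by gene and distance from its nearest start site; points are libraries, horizontal bars means and vertical bars SD of 3. Cdkn1a +13.8 kb and Ccnd3 +26.5 kb are lowest in URE-LSK, both Ccnd1 panels are lowest in URE-GMP, and Cdkn1c +11.2 kb and Ccnd2 +4.9 kb are low in URE of both cell types.

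Counts were also summed over all regions in the window of a gene, which gives 1 level per gene and library. These sums are weighted towards promoter regions, which held 44.0% of the counts at Cdk6 and 99.1% at Cdkn2c. In WT-LSK the sums ran from 80.2 ± 3.9 CPM at Cdkn1c to 386 ± 13 CPM at Ccnd3, and since windows differ in length they are not compared between genes. With genotype, 8 of the 10 sums passed an adjusted p of 0.05 in LSK and 6 in GMP, where 61.3% and 62.7% of 18385 genes did. The count of 8 fell to 3 without WT-LSK replicate 1 or 3, to 4 without WT-LSK replicate 2 or URE-LSK replicate 1, to 5 without any 1 WT-GMP library, to 5 with only the groups compared, to 4 with library size only or TMM on promoter regions, and to 2 with loess offsets. The median log2 fold change over all genes was 0.17 in LSK and 0.15 in GMP, and changes are given beside it. The Ccnd1 sum fell in GMP from 126 ± 16 to 89 ± 2.4 CPM (-0.50 ± 0.08 on the log2 scale) and was 123 ± 5.0 and 123 ± 8.0 CPM in LSK, with an interaction of -0.49 ± 0.11 (adjusted p = 0.00411, edgeR over genes). The Cdkn1a sum had an interaction of 0.41 ± 0.09 (adjusted p = 0.0034). The Cdkn1c sum fell in GMP (-0.24 ± 0.06), and the Cdk6, Ccnd3 and Cdc25a sums rose in GMP by 0.27 ± 0.06, 0.32 ± 0.05 and 0.33 ± 0.05. The Ccnd2 sum rose in LSK by 0.37 ± 0.05 and changed by 0.10 ± 0.05 in GMP. Its interaction was -0.27 ± 0.07 (adjusted p = 0.00962, edgeR over genes). The genes whose sums were most like that of Cdk6 over the 12 libraries were Atg12, Cdo1 and Gpcpd1 (Pearson r = 0.996 each). Their windows shared no region with that of Cdk6. Atg12 and Cdo1 had the same r (0.996369), and regions shared between these genes were not excluded, so they may not be separate cases. These r values are descriptions over libraries that fall into 4 groups.

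Among 38 other genes of the cell cycle, 308 regions were found that belong to none of the 10. In LSK 28 of them were called higher and 49 lower, and in GMP 37 higher and 53 lower, which is 25.0% and 29.2% of them, below the 37.5% and 39.7% of all regions. The pocket protein genes Rb1, Rbl1 and Rbl2, whose products hold E2F factors, had 14 of 47 regions lower and 3 higher in LSK, and 17 lower and 4 higher in GMP, where 23.9% and 24.1% of all regions were lower. The E2F and DP factor genes had 5 of 84 lower and 10 higher in LSK, and 5 lower and 15 higher in GMP, where 13.6% and 15.6% of all regions were higher. The kinase and cyclin genes had 8 of 46 lower and 3 higher in LSK, and 7 and 6 in GMP. DNA replication genes had 16 of 88 lower and 10 higher in LSK, and 16 and 9 in GMP. Inhibitor and checkpoint genes had 5 of 33 lower and 2 higher in LSK, and 6 and 3 in GMP. For the phosphatase genes it was 1 of 13 lower and 0 higher in LSK, and 2 and 0 in GMP. These groups were not tested against each other. In GMP the called region with the smallest p was a loss at Skp2 (chr15:9131563-9131864), whose product marks p27 for degradation, from 4.59 ± 0.83 to 0.317 ± 0.13 CPM (-3.82 ± 0.32, adjusted p = 1.64e-07), and the leading gain was at E2f2 (chr4:136174585-136175150), from 9.27 ± 0.87 to 24.9 ± 1.4 CPM (1.42 ± 0.15, adjusted p = 9.62e-07). In LSK the leading loss was in an intron of Mcm5 (chr8:75119746-75120180), a part of the replicative helicase, from 9.11 ± 1.5 to 0.681 ± 0.12 CPM (-3.73 ± 0.22, adjusted p = 4.73e-09), and the leading gain lay in an exon within the Mcm2 window, nearest to Tpra1 (chr6:88909181-88909437), from 0.317 ± 0.066 to 3.02 ± 1.0 CPM (3.29 ± 0.36, adjusted p = 1.08e-06).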

How the data were processed

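Raw counts of ATAC-seq reads in 121336 regions were deposited by the authors for 12 libraries, 3 in each of 4 groups. Per the labels and the study's methods, reads were trimmed (cutadapt), aligned to GRCm38 (Bowtie2), cleared of duplicates, called into peaks per group (Genrich), merged (bedtools) and counted (featureCounts). Whether fragments or cut ends were counted is not given in the sources used here. A region open in few groups enters the table as well, which gives low counts in the others. Region starts were taken as counted from 0 and are printed from 1. No column of per-sample values was left unused.

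Counts were fitted with edgeR 4.0.16 (R 4.3.3, limma 3.58.1; quasi-likelihood test, TMM scaling, all 12 libraries, 1 mean per group). The low count filter kept all 121336 regions. P-values were Benjamini-Hochberg adjusted over all regions, and a call needed an adjusted p under 0.05 and an absolute log2 fold change over 1. CPM are counts relative to the TMM-scaled library total, and SE is that of the log2 fold change. Sums per gene were fitted alike over 18385 protein-coding genes, called at an adjusted p under 0.05. Genes, start sites and UTRs came from GENCODE M21 basic. The members and gene lists were chosen with earlier results of these data known.

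Named regions were, for each gene, the promoter region with the most counts, and in each direction the called region outside it with the smallest genotype p whose URE and WT libraries did not overlap. For the interaction and for the step from LSK to GMP in WT, the 2 called regions per direction with the lowest p were added. Of the other cell cycle genes, up to 3 regions per genotype contrast and direction were eligible.

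Depth was 23072701 to 62204826 counts per library. Replicate libraries differed by more than sampling noise (chi-square per region 3.22 to 11.7). Replicate numbers are shared between groups, but no source used here says that they pair mice. Deviations from the group means correlated at 0.10, 0.21 and 0.35 between same-numbered URE-GMP and WT-GMP libraries and at 0.10, 0.06 and -0.06 between URE-LSK and WT-LSK, so the numbers met the threshold of 0.1 for pairing between genotypes in GMP and not in LSK. Between same-numbered WT-GMP and WT-LSK libraries the values were 0.18, 0.19 and 0.21, and between URE-GMP and URE-LSK 0.06, 0.27 and 0.12. The threshold was thus met between cell types in WT, and in URE by replicates 2 and 3. The main fit held no replicate block. A replicate block was an alternative, as were DESeq2 1.42.0, other scalings, filters and thresholds, other windows and leaving out each library. The fit was tested on simulated data.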

Additional observations from a re-analysis of the deposited data

Results flagged for a closer look

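At 8 named regions the genotype effect differed between GMP and LSK by the interaction test (log2 fold change in GMP minus that in LSK, edgeR, adjusted over all regions), where 14% of all regions were called. It was positive at both Cdkn1a regions, 3.13 ± 0.22 at chr17:29111307-29112101 and 1.64 ± 0.40 at chr17:29115857-29116338. It was 1.51 ± 0.23 in the Ccnd3 intron at chr17:47531313-47531969. At Cdk6 it was 1.80 ± 0.58 at chr5:3464694-3464937 and 1.34 ± 0.34 at chr5:3460918-3461265. It was negative at the Ccnd1 promoter (-1.14 ± 0.22), at 1.7 kb upstream of it (-1.21 ± 0.22) and beside the Cdkn2c promoter (-1.12 ± 0.33). Tested against the fold threshold itself (glmTreat), the Cdkn1a region at chr17:29111307-29112101 alone of these 8 was still called.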

How the results depend on the processing

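For 59 values of named regions, 1409 of the alternative values kept their direction and side of the threshold, 61 lost and 11 gained a call, and 35 turned sign, all of the latter at promoter regions within the fold threshold. The 8 sum values followed through the alternatives (6 in GMP or LSK and 2 interactions, over 7 genes) kept theirs in all 166, and 218 shares or counts stayed within the limits while 33 moved. The GMP change and the interaction of the Ccnd2 sum were not among the 8. Causes were not tested.

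The share of calls that were lower was 77.8% in LSK and 56.5% in GMP. It became 56.1% and 40.7% with loess offsets, 56.4% and 41.5% with GC content offsets, 57.9% and 41.5% with the replicate block and GC content offsets, 88.5% and 70% with a test against the fold threshold itself (glmTreat), and 48.7% and 43.0% with no fold threshold. Without that threshold 48.4% of the regions were called in LSK, 57.8% in GMP, 65.2% for the step in WT and 67.1% for the step in URE. With glmTreat 18.6% were called in GMP, 21.7% for the step in WT and 0.621% for the interaction, which stood at 4.97% with an adjusted p under 0.01. When regions were assigned by nearest start site, 35.4% were called in LSK and 76.2% of the calls in GMP were lower. Leaving out 1 library gave 7.45% to 11.8% for the interaction, the lowest without URE-LSK replicate 1 or WT-LSK replicate 1.

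The replicate block alone gave 23.0% called in LSK and 28.0% in GMP, and ended 1 call of a named region, the gain at Cdkn1c (0.99). In LSK 8 sums per gene passed, but 4 with library size only, 4 with TMM on promoter regions, 2 with loess offsets, 5 with only the groups compared, and 3 to 8 with 1 library left out (3 without WT-LSK replicate 1 or 3, 4 without WT-LSK replicate 2 or URE-LSK replicate 1, 5 without any 1 WT-GMP library).

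Promoter log2 fold changes that turned sign in GMP with library size only, TMM on promoter regions and loess offsets were, in that order, -0.0104, -0.0262 and -0.191 at Cdk6, -0.0203, -0.0397 and -0.178 at Ccnd2, -0.0568, -0.0749 and -0.201 at E2f1, and -0.0494, -0.0655 and -0.175 at Cdkn1b. With GC content offsets, without and with the replicate block, E2f1 gave -0.0525 and -0.0526 and Cdkn1b -0.0225 and -0.0198. In LSK loess offsets gave -0.116 at Cdk6, -0.0260 at E2f1, -0.0615 at Cdc25a, -0.0706 at Cdkn1a, -0.0274 at Cdkn1b and -0.0910 at Cdkn2c. Cdkn1a gave -0.0508 with library size only and -0.110 with TMM on promoter regions in LSK. Cdkn2c gave -0.00415 with GC content offsets and -0.00517 with the block added in LSK, and 0.0101 with RLE size factors and 0.0112 with DESeq2 in GMP. Ccnd1 gave 0.0287 with RLE size factors and 0.0286 with DESeq2 in LSK. Without 1 library the promoter values ran from -0.123 to 0.0844 at Ccnd1 and -0.0925 to 0.134 at Cdkn1a in LSK, and from -0.0105 to 0.114 at Cdkn1b and -0.118 to 0.00181 at Cdkn2c in GMP.

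A count of 3 equals 0.0631 to 0.0871 CPM on average by group, so levels near that in LSK at Cdk6, Ccnd2 and Cdc25a limit the folds given there. Intervals of counting error were not used, since the spread among 3 mice sets the error.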
